A study of Rattus norvegicus with 6 samples.

Results

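A set of 10 genes of the endoplasmic reticulum (ER) stress system was followed in the rat retina: the chaperone and folding genes Hspa5, Hsp90b1, Calr, Pdia4, Sdf2l1 and Dnajb9, the ER-associated degradation gene Herpud1, and the signalling genes Xbp1, Atf6 and Ern1. They were chosen by name for their function, with earlier results of these data known. All 10 were found among the 28358 genes of the tables. All 10 passed the filter on low counts, which kept 13242 genes for testing. The samples were neuroretinas of male Goto-Kakizaki (GK) rats, a strain that develops type 2 diabetes, aged 14 months. Each had been injected once into the vitreous, 2 months earlier, with 5 µL of microspheres of PLGA, a degradable polymer. The load was 6.2 µg of spironolactone, a mineralocorticoid receptor antagonist, in 3 samples, and the microspheres of the other 3, the controls, were non-loaded. All 6 samples came from the diabetic strain and from injected eyes, so an untreated or non-diabetic level is not part of the comparison. Nothing in the labels ties each sample to its own animal, and p-values cover only the spread among these 6 samples, part of which may be technical.

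Proteins that enter the ER are folded there with the help of chaperones. When unfolded protein accumulates, 3 sensors in the ER membrane, ATF6, IRE1 (encoded by Ern1) and PERK (encoded by Eif2ak3), start the unfolded protein response (UPR). ATF6 and the transcription factor XBP1, whose mRNA IRE1 splices, raise chaperone and degradation genes, while PERK acts through the translation factor eIF2 and the transcription factor ATF4. In the retina this system is known for its role in photoreceptors, which make large amounts of membrane protein.

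Of the 10 genes, 1 rose with spironolactone and 0 fell at an adjusted p below 0.05 (edgeR quasi-likelihood test). Over all tested genes, 1.87% were called higher and 0.763% lower. The gene that rose was Herpud1, by 39.1%, and its call was lost in several alternatives given below. None of the 6 chaperone genes passed, and neither did Xbp1, Atf6 or Ern1. DESeq2 gave an adjusted p for 9 of the 10 and called 0 of them in either direction, and limma-voom called Herpud1. At an unadjusted p below 0.05 there were 2 genes on each side, Herpud1 and Atf6 with a positive difference and Calr and Sdf2l1 with a negative one, beside 9.52% and 6.32% of all tested genes. In these 4 genes the libraries of the groups did not overlap, against 11.4% of all tested genes with every spironolactone library above every control library and 9.48% with every one below. The median log2 fold change of the 10 genes was −0.01, beside 0.00 over all tested genes. For 8 of the 10, all but Herpud1 and Sdf2l1, the unadjusted 95% interval of the fold lay within 1.25-fold of no change.

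**Figure D1:**
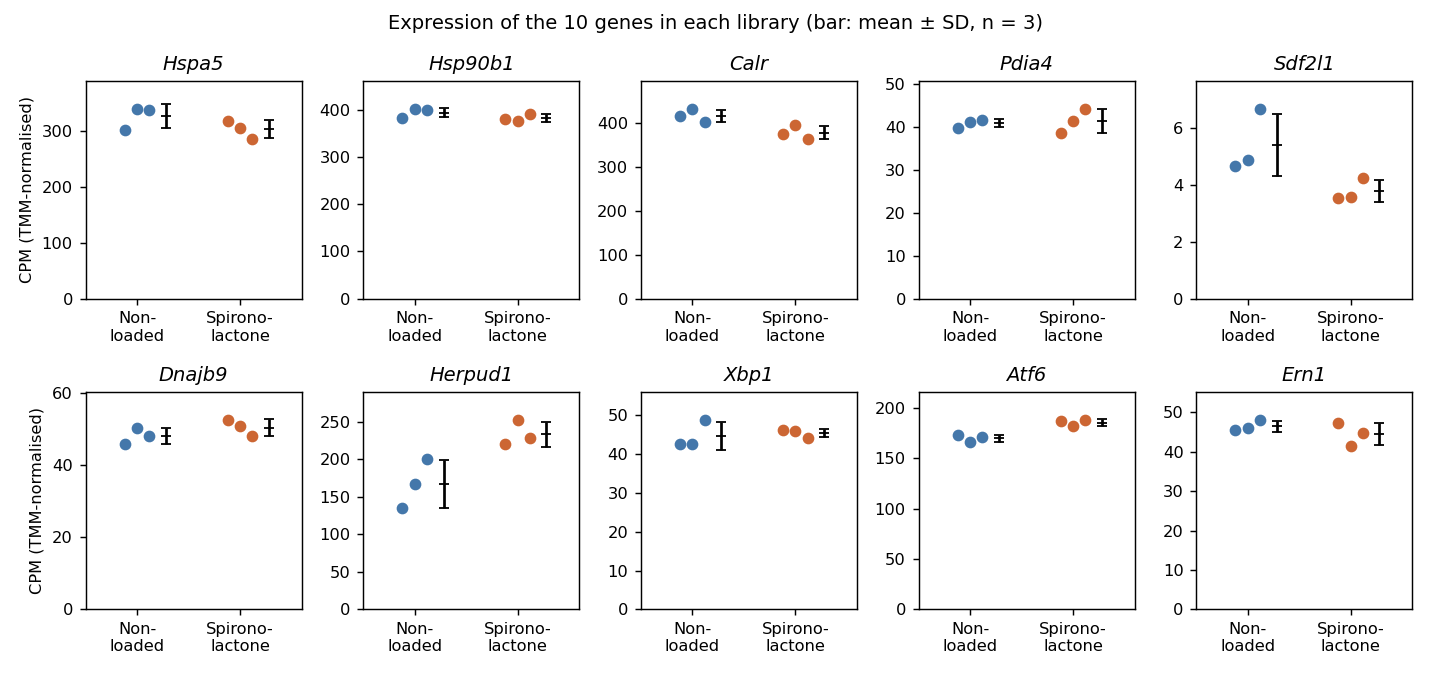
TMM-normalised read counts (CPM, vertical axis from 0) of the 10 genes in each library; points are libraries, black bars the mean ± SD of 3 libraries per group. Herpud1 sits between 136 and 200 CPM in the control libraries and between 220 and 252 CPM in the spironolactone libraries, whereas the groups of Hspa5, Hsp90b1, Pdia4, Dnajb9, Ern1 and Xbp1 overlap.

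Hspa5 encodes BiP, the Hsp70 chaperone of the ER that also holds the sensors inactive. Its level in CPM, the count divided by the TMM-scaled library size, was 301, 338 and 338 in the control libraries and 318, 305 and 285 in the spironolactone libraries. The groups overlapped, with the lowest value in a spironolactone library and the second lowest in a control library. The log2 fold change was −0.11 ± 0.06 (SE, n = 3 per group; edgeR, adjusted p = 0.45), with a 95% interval from −0.24 to 0.03. Hsp90b1, which encodes the ER Hsp90 chaperone GRP94, measured 382, 400 and 398 CPM in controls and 379, 375 and 391 CPM with spironolactone. The log2 fold change was −0.04 ± 0.05 (edgeR, adjusted p = 0.759).

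Calr encodes calreticulin, a calcium-binding chaperone that holds glycoproteins until they fold. It measured 416, 431 and 402 CPM in controls and 376, 394 and 364 CPM with spironolactone, so that the lowest control library lay just above the highest spironolactone library. The log2 fold change of −0.14 ± 0.06 did not pass (edgeR, unadjusted p = 0.0265, adjusted p = 0.242). Pdia4 encodes the disulfide isomerase ERp72 and measured 39.8, 41.0 and 41.5 CPM in controls and 38.4, 41.3 and 44.0 CPM with spironolactone. Its log2 fold change was 0.02 ± 0.08 (edgeR, adjusted p = 0.956).

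Dnajb9 encodes ERdj4, a J-domain partner of BiP that also represses IRE1. It measured 45.9, 50.3 and 48.0 CPM in controls and 52.4, 50.7 and 48.0 CPM with spironolactone (log2 fold change 0.07 ± 0.08; edgeR, adjusted p = 0.739). Sdf2l1 encodes a small ER protein that works with BiP and its J-domain partners. It measured 4.65, 4.89 and 6.66 CPM in controls and 3.55, 3.59 and 4.25 CPM with spironolactone, from 38 to 81 counts per library. All spironolactone values lay below all control values, and the control group was spread by one library, replicate 3. The log2 fold change of −0.52 ± 0.22 was the largest negative one among the 10 genes and did not pass (edgeR, adjusted p = 0.273). Its 95% interval, from −0.99 to −0.04, shows how little these counts fix its size.

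Herpud1 encodes an ER membrane protein with a ubiquitin-like domain that helps to assemble the complex that exports misfolded proteins for degradation. It measured 136, 167 and 200 CPM in the control libraries and 220, 252 and 228 CPM in the spironolactone libraries. Every spironolactone library lay above every control library, but control replicate 3 and spironolactone replicate 1 were closer to each other than the control libraries were among themselves. The mean was 167 ± 32.1 CPM in controls and 233 ± 16.8 CPM with spironolactone (SD, n = 3 per group). The log2 fold change was 0.48 ± 0.10 (edgeR, adjusted p = 0.0145), with a 95% interval from 0.27 to 0.69. The call was lost without control replicate 1 (adjusted p = 0.0647), control replicate 2 (0.0559) or spironolactone replicate 2 (0.143). It was also lost with DESeq2 (adjusted p = 0.0775), with robust shrinkage in edgeR (0.204) and on log2(TPM + 1) or log2(TPM + 0.1) with limma (0.11 in both). The difference was positive in all of these.

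Each sample title holds a number, 2, 3 or 4 for controls and 8, 10 or 11 for spironolactone, and what it stands for is not stated. With the title number as a covariate in edgeR, the log2 fold change of Herpud1 was −0.20 (adjusted p = 1). The number follows the group (r = 0.953), so the drug and whatever the number stands for cannot be told apart in that fit, and 0 genes of the whole table passed in it (562 had an unadjusted p below 0.05).

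The ratio of Herpud1 to Hspa5 counts in the same library compares these genes without reference to the rest of the library. It was 0.450, 0.494 and 0.592 in controls and 0.691, 0.828 and 0.799 with spironolactone, with no overlap. The mean log2 ratio differed by 0.60 between the groups (two-sided exact permutation test, p = 0.1, the smallest that 3 against 3 allows). The ratio to Calr differed by 0.63, that to Hsp90b1 by 0.54 and that to Xbp1 by 0.47, each with the same smallest p, so that none of the 4 could pass. Herpud1, the gene called above, is the numerator of all 4, so they restate its difference and add no separate evidence.

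The promoters of these genes are printed because they hold different stress elements. Promoters from RefSeq (GRCr8 assembly, 250 bases before to 50 bases after the start of the gene) matched 8 of the 10 genes; Atf6 and Ern1 were not matched. Both strands were searched for the ER stress response element (ERSE, CCAAT and CCACG with 9 bases between them), to which NF-Y and ATF6 or XBP1 bind. The other motifs were ERSE-II (ATTGG, 1 base, CCACG), the core of the UPR element (TGACGTG) and the core of the C/EBP-ATF response element (CARE, TGATGNAA), to which ATF4 binds with a partner. The 250 bases before the start are given 5′ to 3′ on the strand of the gene for Herpud1 (chr19:10614708-10614957, minus strand) and Hspa5 (chr3:38452766-38453015, plus strand). Capitals mark the fixed letters of a matched motif.
Herpud1: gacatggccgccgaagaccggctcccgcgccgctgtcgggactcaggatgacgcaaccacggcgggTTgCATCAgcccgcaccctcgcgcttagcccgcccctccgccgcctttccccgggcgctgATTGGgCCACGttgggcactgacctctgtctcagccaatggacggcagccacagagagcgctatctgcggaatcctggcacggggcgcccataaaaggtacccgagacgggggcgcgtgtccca
Hspa5: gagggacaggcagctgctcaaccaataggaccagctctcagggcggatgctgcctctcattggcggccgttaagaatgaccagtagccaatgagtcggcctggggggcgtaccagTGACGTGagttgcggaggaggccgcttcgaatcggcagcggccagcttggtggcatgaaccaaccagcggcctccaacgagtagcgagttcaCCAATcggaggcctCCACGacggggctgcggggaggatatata

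The Herpud1 window held an ERSE-II at −124 to −114 from the start and a CARE core, on the opposite strand, at −184 to −177, and no full ERSE. The Hspa5 window held a full ERSE at −43 to −25 and a UPR element core at −135 to −129, and neither ERSE-II nor CARE core. A full ERSE was also found for Hsp90b1, Calr and Xbp1, with 2 copies for Hsp90b1. These sites are shown in the orientation of the motif, so that the shared ends and the differing middle can be compared.
Hspa5 (chr3:38452973-38452991): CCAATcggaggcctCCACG
Hsp90b1 (chr7:23012451-23012469): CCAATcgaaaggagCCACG
Hsp90b1 (chr7:23012347-23012365): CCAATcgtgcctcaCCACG
Calr (chr19:40213135-40213153): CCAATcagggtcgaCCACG
Xbp1 (chr14:84604558-84604576): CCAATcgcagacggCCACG

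A full ERSE was present in 0.0657% of the 33469 RefSeq promoters of this length and in 4 of the 8 matched genes. The motifs were searched because they are elements of the ER stress response. Their presence in ER stress genes is therefore a description and was not tested as an enrichment. ERSE-II was present in 0.0508% of promoters, the UPR element core in 1.81% and the CARE core in 3.98%. Pdia4, Sdf2l1 and Dnajb9 held CCAAT and CCACG letters but none of the 4 motifs as spelled here. Among tested genes, 14 had a full ERSE and edgeR called 0 of them in either direction (1, Calr, had an unadjusted p below 0.05), with a median log2 fold change of 0.05. Besides the members these included Creld2 (log2 fold change 0.21 ± 0.13), Dnajc3 (0.08 ± 0.09), Canx (−0.05 ± 0.05) and Ero1b (0.18 ± 0.12), all ER folding genes. ERSE-II was held by 9 tested genes, of which Herpud1 alone was called; Hyou1 (−0.19 ± 0.06; edgeR, adjusted p = 0.119) and Dnajb11 (0.02 ± 0.07) were among the others. Of 194 tested genes with a CARE core, 14 were called higher (7.22%) and 2 lower, beside 197 higher (1.98%) and 75 lower among the 9928 tested genes matched to any promoter. Of 261 tested genes with a UPR element core, 5 were called higher (1.92%) and 0 lower, with 51 at an unadjusted p below 0.05. The same count was 49 of 194 for the CARE core and 2 of 9 for ERSE-II. Among the 9928 tested genes matched to any promoter it was 1622. A match describes letters in a window and was not tested as a binding site.

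**Figure D2:**
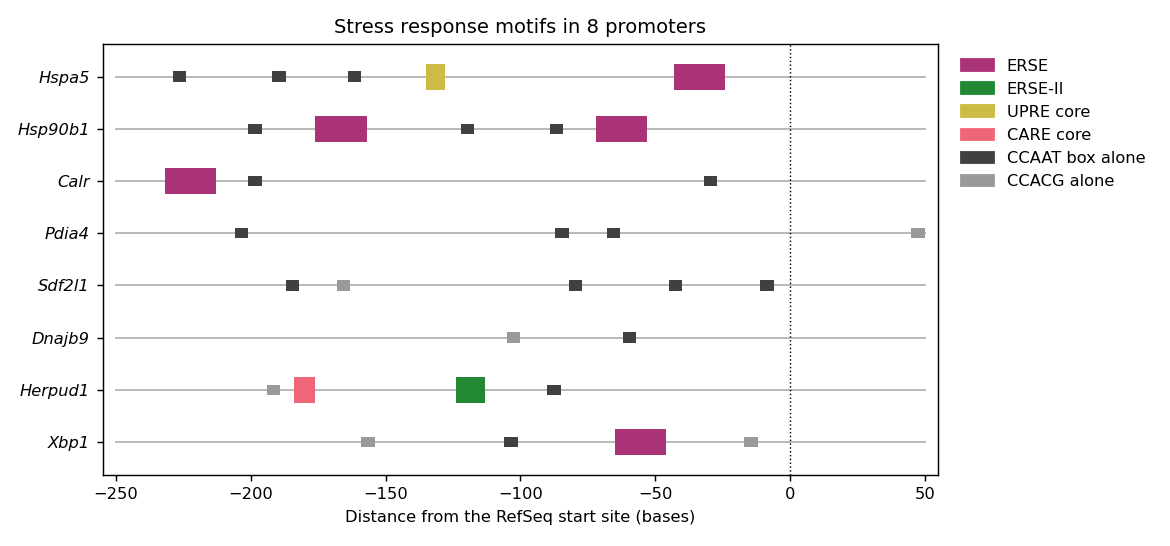
Position of the searched motifs (horizontal axis, bases from the RefSeq start site, dotted line) in the 8 matched promoters; coloured bars are full motifs on either strand, and short grey bars CCAAT and CCACG letters. Full ERSE bars appear for Hspa5, Hsp90b1, Calr and Xbp1, and Herpud1 has the ERSE-II and CARE core bars.

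The signalling genes gave small differences. Xbp1 measured 42.6, 42.6 and 48.7 CPM in controls and 46.1, 46.0 and 44.2 CPM with spironolactone (log2 fold change 0.02 ± 0.08; edgeR, adjusted p = 0.932). The tables list 1 transcript for Xbp1, so the spliced form that IRE1 makes was not measured. Ern1, the gene of IRE1, measured 45.4, 46.0 and 48.0 CPM in controls and 47.2, 41.6 and 44.7 CPM with spironolactone (−0.06 ± 0.08; edgeR, adjusted p = 0.756). Atf6 measured 173, 166 and 171 CPM in controls and 186, 181 and 188 CPM with spironolactone. Its groups did not overlap and were each narrow, and the log2 fold change of 0.13 ± 0.05 did not pass (edgeR, unadjusted p = 0.0361, adjusted p = 0.278). ATF6 and IRE1 are activated by cleavage and by phosphorylation, which mRNA levels do not measure.

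**Figure D3:**
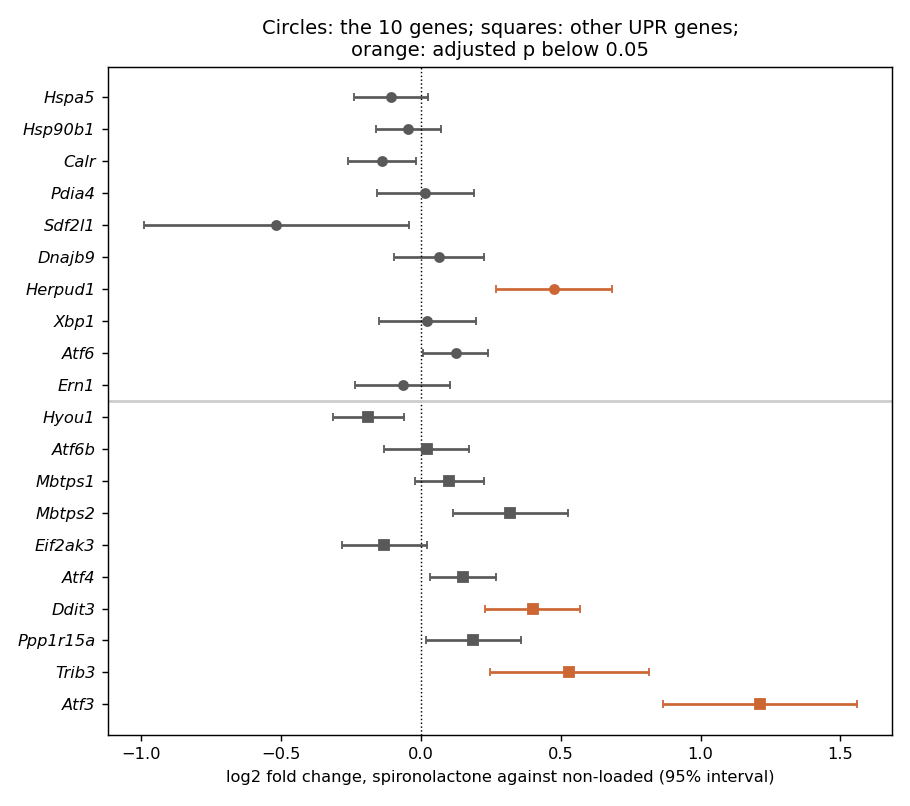
Log2 fold changes with unadjusted 95% intervals (horizontal axis; edgeR, 3 against 3 libraries) for the 10 genes (circles) and 10 other UPR genes (squares); orange marks an adjusted p below 0.05. Herpud1 is the only orange circle, and Atf3, Ddit3 and Trib3 are the orange squares.

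Among 26 tested genes of a list of other UPR signalling genes, 3 rose and 0 fell. These were Atf3, Ddit3 and Trib3, which encode a transcription factor, the transcription factor CHOP and a pseudokinase, all known to act downstream of ATF4. Ddit3 measured 68.0 ± 7.53 and 89.8 ± 6.34 CPM (log2 fold change 0.40 ± 0.08; edgeR, adjusted p = 0.0109), Atf3 57.3 ± 22.7 and 133.8 ± 12.6 CPM (1.21 ± 0.16, adjusted p = 0.000384) and Trib3 40.6 ± 11.8 and 59.0 ± 2.54 CPM (0.53 ± 0.13, adjusted p = 0.0455). Control replicate 3 was the highest control library for all 3, as it was for Herpud1. Trib3 passed without control replicate 3 (adjusted p = 6.99e-05) or spironolactone replicate 1 (0.0446), and not without control replicate 1 (0.217), control replicate 2 (0.175), spironolactone replicate 2 (0.219) or spironolactone replicate 3 (0.104). Ddit3 did not pass without control replicate 1 (0.0781), control replicate 2 (0.062) or spironolactone replicate 2 (0.112). On log2(TPM + 1) and log2(TPM + 0.1) the adjusted p of Ddit3 was 0.087 and 0.0896. Trib3 kept its call in 7 of 19 alternatives; it also missed the threshold with library totals (0.0531), upper quartile scaling (0.0521), effective lengths (0.0563), log2(TPM + 1) (0.169), log2(TPM + 0.1) (0.171), DESeq2 (0.2) and robust shrinkage (0.278). Atf3 passed whichever library was left out, but not with robust shrinkage (0.176) or with the title number as a covariate. In that last fit, which cannot tell the drug from the number, none of the 3 passed. The log2 fold change there was 0.0156 for Atf3, 0.2752 for Ddit3 and −0.005157 for Trib3.

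Eif2ak3, Atf6b, Mbtps1, Mbtps2, Atf4 and Ppp1r15a did not pass. Eif2ak3, the gene of PERK, measured 58.8 ± 0.70 and 53.7 ± 3.04 CPM (log2 fold change −0.13 ± 0.07; edgeR, adjusted p = 0.413). Atf6b, a relative of Atf6, gave 0.02 ± 0.07 (adjusted p = 0.928). Mbtps1 and Mbtps2 encode the Golgi proteases that cleave ATF6, and their log2 fold changes were 0.10 ± 0.06 (adjusted p = 0.423) and 0.32 ± 0.10. Mbtps2 measured 22.7 ± 0.71 and 28.4 ± 2.24 CPM (edgeR, unadjusted p = 0.00407, adjusted p = 0.0969). Atf4 measured 798.6 ± 20.1 and 886.5 ± 37.6 CPM (0.15 ± 0.06, edgeR, unadjusted p = 0.016, adjusted p = 0.187). Ppp1r15a, the stress-induced phosphatase subunit of eIF2, gave 0.19 ± 0.08 (edgeR, unadjusted p = 0.0326, adjusted p = 0.267).

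Other ER chaperones and folding enzymes had 1 of 35 tested genes higher and 0 lower, with a median log2 fold change of 0.01. The shares over all tested genes were 1.87% and 0.763%. The gene that rose was Cdnf, which encodes a small neurotrophic ER protein. It measured 2.06 ± 0.19 and 4.30 ± 0.27 CPM (log2 fold change 1.05 ± 0.25; edgeR, adjusted p = 0.0357). It missed the threshold whichever library was left out (adjusted p from 0.0514, without spironolactone replicate 1, to 0.134, without spironolactone replicate 3). Hyou1, a large ER chaperone that exchanges the nucleotide of BiP, measured 217.8 ± 8.09 and 191.4 ± 10.5 CPM and passed only without spironolactone replicate 1 (adjusted p = 0.0457). Erp29 (−0.26 ± 0.12) and Sec63 (0.10 ± 0.06) had the next smallest p. In ER-associated degradation, the pathway of Herpud1, DESeq2 called 0 of the 24 genes that it gave an adjusted p. EdgeR and limma-voom called 0 of 26 tested genes, and 1 had an unadjusted p below 0.05 in edgeR. That gene was Herpud2, the paralog of Herpud1, with 57.2 ± 2.34 and 64.3 ± 1.56 CPM (0.17 ± 0.07; adjusted p = 0.237). Aup1, which helps recruit ubiquitin-conjugating enzymes, gave 0.14 ± 0.07.

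Genes of ER translocation, signal cleavage and N-glycosylation had 0 of 31 called by edgeR or limma-voom, and 0 of the 29 with an adjusted p in DESeq2. At an unadjusted p below 0.05, 0 were higher and 4 lower (9.52% and 6.32% over all tested genes), and the median was −0.05. These 4 were Sec61g, a subunit of the translocation channel (−0.44 ± 0.13, adjusted p = 0.0854), Tusc3, an oligosaccharyltransferase subunit (−0.20 ± 0.06), Ssr1 (−0.15 ± 0.06) and Srp14 (−0.15 ± 0.07). The ER calcium list had 0 of 20 called by edgeR or limma-voom, with 1 higher and 2 lower unadjusted. Itpr3, a calcium release channel, gave 0.35 ± 0.12, Atp2a2, the calcium pump of the ER, −0.16 ± 0.06 (adjusted p = 0.0494 with DESeq2) and Sdf4 −0.13 ± 0.06. In the list of export from the ER and return to it, DESeq2 called 0 of the 18 genes that it gave an adjusted p. EdgeR and limma-voom called 0 of 21, with 2 on each side unadjusted in edgeR. The COPII coat genes Sec24b (0.25 ± 0.07) and Sec24a (0.28 ± 0.08) were on the positive side, and the cargo receptor genes Tmed10 (−0.19 ± 0.07) and Mcfd2 (−0.20 ± 0.08) on the negative side. Leaving out spironolactone replicate 1 brought Sec61g (adjusted p = 0.0494), Tusc3 (0.0375), Sec24b (0.0136) and Sec24a (0.028) past the threshold. It also raised the calls over all genes from 247 higher and 101 lower to 421 and 200. None of these 4 passed when another library was left out.

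**Figure D4:**
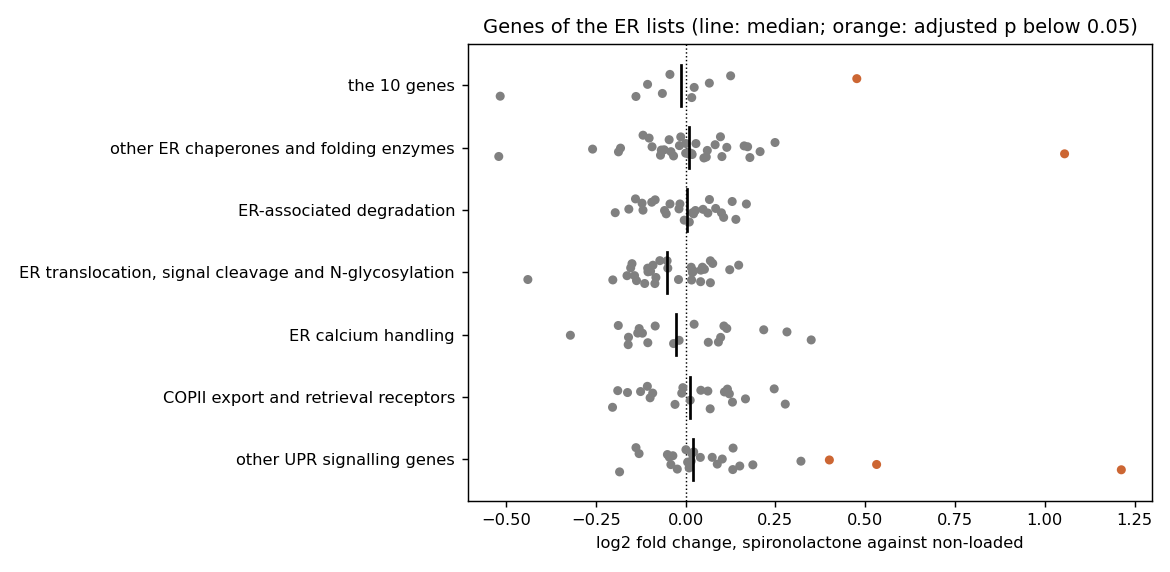
Log2 fold change (horizontal axis) of each tested gene of the 10 genes and of 6 lists of ER genes; points are genes, black lines medians, and orange marks an adjusted p below 0.05 (edgeR). The medians of the 6 lists lie between −0.05 and 0.02, and the orange points are Herpud1, Cdnf, Atf3, Ddit3 and Trib3.

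To compare levels between genes, TPM, a read count corrected for gene length and scaled to a common total, was used. Calr was the highest of the 10, between 388 and 444 TPM over the 6 libraries, and its range did not touch that of the next gene. Hsp90b1 followed with 255 to 279 TPM, Hspa5 with 216 to 260 TPM and Herpud1 with 146 to 269 TPM, and the ranges of these neighbours overlapped. Herpud1 was below Hspa5 in TPM in all 3 control libraries (146, 174 and 220 against 227, 247 and 260). With spironolactone it was above Hspa5 in replicates 2 and 3 (269 and 246 against 228 and 216) and near it in replicate 1 (245 against 248). Below these came Xbp1 (78.4 to 94.3 TPM), Atf6 (64.3 to 77.2), Dnajb9 (46.3 to 54.7), Pdia4 (33.2 to 36.9), Ern1 (11.1 to 13.9) and Sdf2l1 (7.10 to 13.6), of which only Ern1 and Sdf2l1 overlapped. The coefficient of variation over the 6 libraries was 25.6% for Sdf2l1 and 21.9% for Herpud1, and between 3.02% and 7.96% for the other 8. The summed TPM of the 10 genes was 1392 ± 73.8 in controls and 1421 ± 33.5 with spironolactone, a difference smaller than the spread in the control group. This sum joins genes with positive and negative differences, of which only that of Herpud1 passed the edgeR test. The mean TPM of Herpud1 was 180 in controls and 253 with spironolactone. The summed TPM of the 6 chaperone genes was 1019, 1049 and 1074 in controls and 1026, 990 and 968 with spironolactone. These sums overlapped between the groups, and none of the 6 genes passed.

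**Figure D5:**
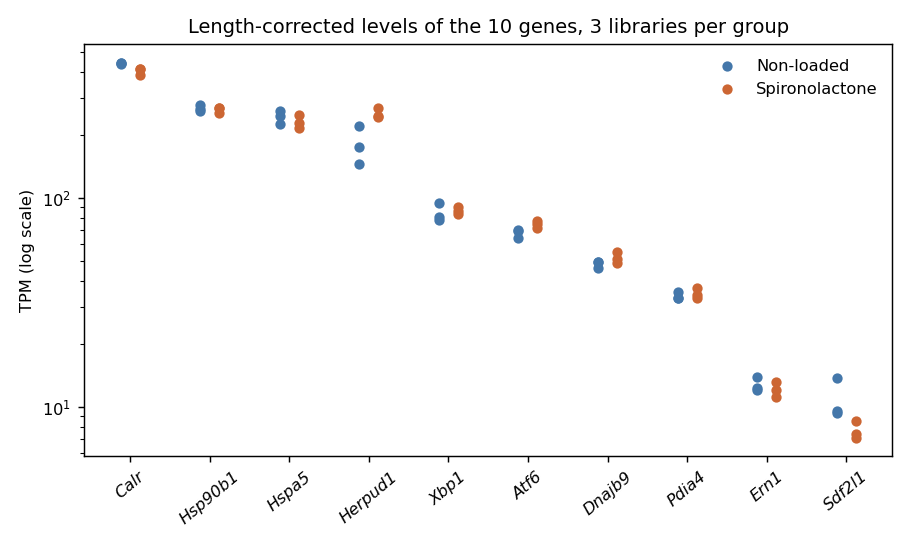
Length-corrected levels (TPM, log scale) of the 10 genes in each library, ordered by their mean over 6 libraries; blue points are control and orange points spironolactone libraries. Calr lies between 388 and 444 TPM, and the Herpud1 points of the groups separate where those of Hspa5 do not.

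The genes whose log2 CPM followed a member most closely over the 6 libraries were found among 9858 genes of sufficient level. With so few libraries and so many candidates, high coefficients are common, and they are given as a description. For Herpud1 they were Wdr89 (Pearson r = 0.999), Rpl36al (0.995), Wdr46 (0.994), Elfn1 (0.993) and Pcgf2 (0.986), and none of these 5 passed the edgeR test (adjusted p from 0.077 to 0.299). For Hspa5 they were Marc2 (0.996), Fam172a (0.994), Cenpl (0.991), Il4r (0.991) and Wipi2 (0.988), and none of these 5 passed either (adjusted p from 0.285 to 0.75).

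The libraries held between 9996198 and 12589466 expected counts. Rod, cone, bipolar, amacrine and horizontal, ganglion cell and Müller markers were all counted, as the label of neuroretina requires. EdgeR called 0 of the 6 cone markers (median log2 fold change −0.17) and 0 of the 6 ganglion cell markers (−0.07), and all of these were negative. A positive log2 fold change was held by 3 of 6 bipolar, 3 of 6 amacrine and horizontal and 1 of 6 Müller markers. The rod markers Sag, Pde6a, Pde6b, Cnga1 and Nrl, a part of the rod list that does not stand for all of it, summed to 11077 to 11783 CPM in controls and 11010 to 11370 CPM with spironolactone. Of these 5, 4 had a negative and 1 a positive log2 fold change, edgeR called 0, and Nrl had an unadjusted p below 0.05 (−0.22 ± 0.08, adjusted p = 0.161). The 7 pigment epithelium markers summed to 95.7 to 122.7 and 46.5 to 109.6 CPM, with 0 of 5 tested called. All 5 had a negative log2 fold change (median −0.51), 2 had an unadjusted p below 0.05 and 1 had groups that did not overlap. The 5 fibroblast markers summed to 33.8 to 36.3 and 32.7 to 35.0 CPM with 0 of 3 tested called. All 3 had an unadjusted p below 0.05 and groups that did not overlap: Col1a1 measured 0.75 ± 0.42 and 2.08 ± 0.17 CPM (log2 fold change 1.46 ± 0.41; edgeR, adjusted p = 0.0723), Col3a1 0.51 ± 0.36 and 1.51 ± 0.38 CPM (1.47 ± 0.50, adjusted p = 0.146) and Pdgfra 33.3 ± 1.82 and 29.0 ± 1.94 CPM (−0.20 ± 0.09, adjusted p = 0.293). Lens markers stayed at or below 2.31 CPM and plasma and B cell markers at or below 2.63 CPM in sum, with Mip and Cd79a at 0 in every library. The part of cell composition in the Herpud1 difference was not tested, and in bulk tissue fewer cells of a type and less RNA per cell cannot be told apart.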

How the data were processed

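Per the labels' protocols, RNA from snap-frozen neuroretinas was treated with DNase and made into libraries using a stranded mRNA kit. The submitters' processing notes name FastQC, Trimmomatic, STAR 2.5.3a, RSEM 1.2.28 and rn6, without roles; annotation and strand setting: not given in the sources used here. The authors deposited expected counts per gene, which RSEM estimates by sharing ambiguous reads, together with TPM, FPKM (not used here in a test) and lengths in bases, per the file headers.

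Expected counts were rounded (0.437% to 0.469% of values were fractional), filtered with filterByExpr (13242 of 28358 genes) and compared with edgeR 4.0.16 in R 4.3.3 (TMM, glmQLFit, glmQLFTest, two-sided, Benjamini-Hochberg over all tested genes, threshold 0.05). Standard errors are the log2 fold change over the square root of F. The test was tested on simulated data, drawn with the spread usual for a gene's level. Genes more variable than that were not covered. Alternatives used DESeq2 1.42.0, limma 3.58.1, other scalings, filters and offsets, and each library left out. The members and lists were chosen with earlier results of these data known, so lists are described by counts and medians. Named are all members, called list genes, 8 further UPR genes, the list genes of smallest p (up to 4 a list, given in part) and the 5 genes most like Herpud1 or Hspa5; genes named by motif or as markers were named after their values were seen. GRCr8 served only for promoters, a build other than that of the counts. A few list genes enter the counts but are not reported here by name.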

Additional observations from a re-analysis of the deposited data

How the results depend on the processing

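Each result was recomputed under 19 alternatives. The count of the 10 genes called higher fell from 1 to 0 with DESeq2, robust shrinkage, log2(TPM + 1), log2(TPM + 0.1) and the title number as a covariate, and was 0 to 1 when each library was left out. The count called lower was 0 in each of the 19. In the 6 other lists 4 genes were called higher; this became 2 with DESeq2, 7 with no filter, 7 at a threshold of 0.1, 1 with either TPM scale, 0 with the title number, and 1 to 5 when each library was left out. The count lower went from 0 to 1 with DESeq2, no filter or the threshold of 0.1, and to 0 to 3 when each library was left out. Over all genes, 247 were higher and 101 lower. These became 439 and 163 with no filter, 416 and 177 at the threshold of 0.1, 82 and 18 on log2(TPM + 1), 79 and 16 on log2(TPM + 0.1), and 0 and 0 with the title number (562 at an unadjusted p below 0.05). Leaving out a library gave 81 to 421 higher and 30 to 200 lower. With the title number the log2 fold change turned to −0.1989 for Herpud1 and −0.005157 for Trib3; the cause was not tested. Adjusted p of Herpud1 ranged from 1.56e-06 with no filter to 1. The other 9 of the 10 genes passed in none of the alternatives that gave a value; Sdf2l1 had none with DESeq2. Mbtps2, Hyou1, Sec61g, Tusc3, Itpr3, Atp2a2, Sec24a and Sec24b passed in 1 to 4 alternatives each. No paired analysis was possible because the labels give the groups no shared replicate numbers. The replicate numbers used here follow the order of the title numbers within each group and do not pair the groups. Sdf2l1 had 38 to 81 counts per library, the fewest of the 10 genes.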
